A study of Homo sapiens with 8 samples.

Results

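Glycolysis and the hypoxia response are described here through a list of 36 genes, matched by GENCODE release 44 symbol to the 58735 Ensembl identifiers of the count files. Of these, 25 encode glycolytic enzymes, sugar and lactate transporters and their regulators, and 11 belong to the oxygen-sensing pathway and its targets. All 36 were found, each under 1 identifier. A total of 34 passed the filter on low counts. The other 2 were not tested: SLC2A3 had 3 counts in 1 library and 0 in 7, and CA9 had 1 to 3 counts in each control and 0 in every inhibitor library.

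RNA was sequenced from 22Rv1, an established human prostate carcinoma line that grows without androgen. The 4 control libraries came from cells given DMSO, the vehicle, and the other 4 from cells given PCC0208017, which the submitters call an inhibitor of the kinase MARK3. Both groups were the same line. Dose, treatment time, medium and oxygen level are not stated in the labels, nor whether replicates were separate cultures. The p-values therefore cover only the variation among these libraries, and that could be technical. Total counts ran from 12672817 to 13386143 in controls and from 13517289 to 21271127 with the inhibitor. Controls fell into pairs: libraries 1 and 2, and 3 and 4, differed less within a pair (chi-square per degree of freedom of 1.73 and 1.71) than across pairs (3.41 to 4.60), and no label names a batch. Against controls 1 and 2 alone 5 members rose and 17 fell, and against controls 3 and 4 alone 4 rose and 18 fell, an alternative added after seeing the data. Of 9 luminal prostate markers all were detected, with a summed level of 1742 to 1845 counts-per-million (CPM) in controls and 1078 to 1152 in inhibitor libraries, and the part of that difference in the results was not tested. Single luminal markers differed widely: KLK3 fell 26.8-fold, KLK4 13.5-fold and TMPRSS2 11.6-fold, whereas KRT8 (−0.10 on the log2 scale) and EPCAM (0.03) did not pass. Endothelial and basal epithelial markers summed to less than 1 CPM in every library, leukocyte markers to at most 2.73 CPM and fibroblast markers, mostly COL1A1, to at most 22.9 CPM.

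Glycolysis splits glucose into pyruvate, which is either reduced to lactate and exported or passed to the mitochondria. Most steps have several isoenzymes encoded by different genes, which differ in regulation and tissue distribution. When oxygen is low, prolyl hydroxylases of the EGLN family stop marking the alpha subunits HIF1A and EPAS1 for destruction. The stabilised factors then bind short DNA elements and raise transcription of glycolytic genes, of VEGFA and of mitophagy receptors such as BNIP3. Cancer cells often run glycolysis at a high rate with oxygen present, and prostate epithelium is known for an unusual metabolism that secretes citrate.

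With the inhibitor, most glycolytic transcripts were lower, whereas the hypoxia genes moved in both directions. Of 34 tested members, 18 fell, 5 rose and 11 did not pass the test (threshold: adjusted p under 0.05 in edgeR's quasi-likelihood F test, Benjamini-Hochberg over all tested genes). The background is high: 58.0% of all 16452 tested genes were called, 28.3% lower and 29.8% higher. In bulk RNA, fewer cells expressing a gene and less RNA per cell cannot be told apart. Among the 24 tested glycolysis genes, 16 fell, 1 (PFKP) rose and 7 did not pass, with a median log2 change of −0.33 against 0.02 over all tested genes. The number that rose was 2 without control 3 or inhibitor 3, with upper-quartile scaling, with thinned libraries or against controls 1 and 2 alone. It was 4 with total counts or GC correction, and 0 against controls 3 and 4 alone. Among the 10 tested hypoxia genes, 4 rose, 2 fell and 4 missed the threshold (median 0.23). With upper-quartile or total-count scaling 5 rose, and against controls 1 and 2 alone 3 rose. Without the low-count filter, with GC correction, or without control 4, inhibitor 1 or inhibitor 2, 3 fell. The median lay between 0.15 and 0.33 in all settings run. Libraries of the 2 groups did not overlap for 21 of the 34 members, against 51.0% of all tested genes. Together the 25 glycolysis genes took 0.841% to 0.876% of all counts in controls and 0.678% to 0.751% with the inhibitor, and the 11 hypoxia genes 0.0426% to 0.0481% and 0.0568% to 0.0591%. Changes are given as log2 fold change of inhibitor over control, ± SE, with 4 libraries per group.

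The direction of small changes depends on the scaling. When libraries were scaled by total counts and not by TMM (trimmed mean of M-values), the all-gene median was 0.13 rather than 0.02, and 63.6% rather than 51.3% of called genes were higher. The members then split into 9 higher and 17 lower, and into 8 higher and 19 lower after a correction for GC content. Changes under about 0.2 in size are therefore stated only relative to the TMM scale.

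**Figure D1:**
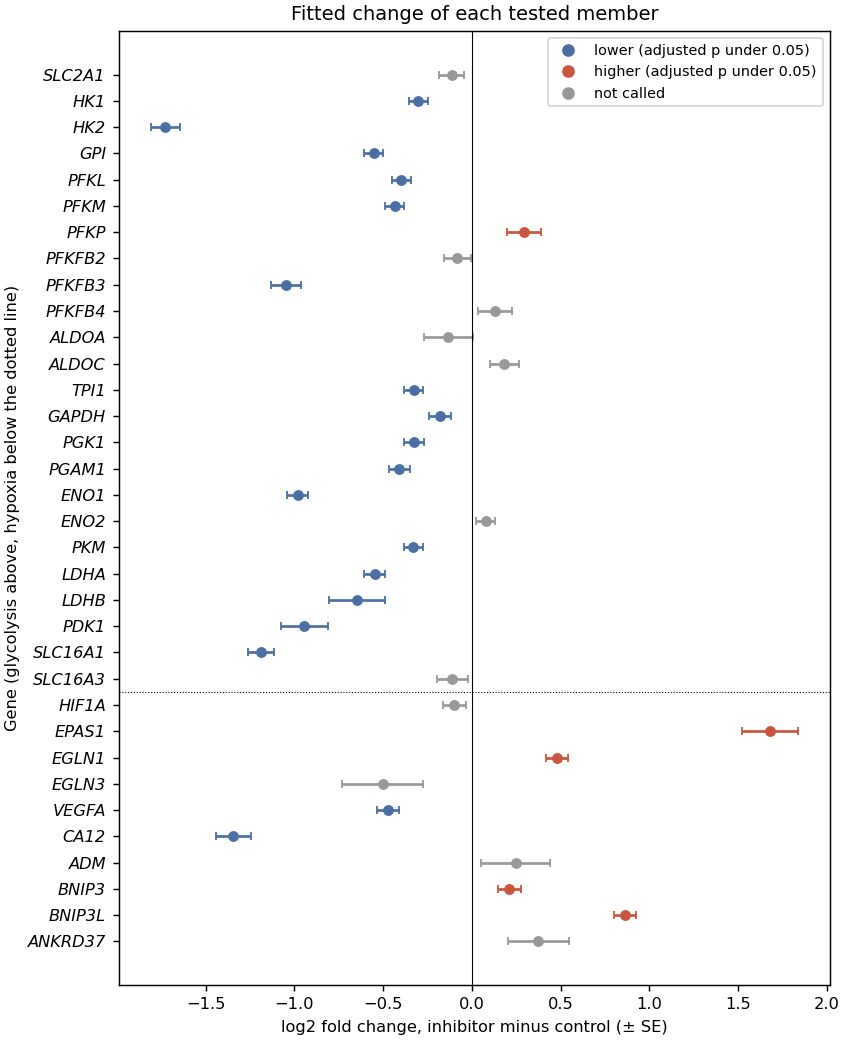
Fitted log2 fold change (horizontal axis, inhibitor minus control, bars ± SE, 4 libraries per group) of the 34 tested genes in pathway order, blue where lower, red where higher and grey where the adjusted p was 0.05 or more. Of the glycolysis genes, 16 lie at the left in blue and only PFKP is red. EPAS1 and BNIP3L lie farthest to the right.

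Per unit of transcript length, the steps from triose phosphate to lactate were the most abundant. Levels were computed as transcripts-per-million (TPM) from the union of annotated exons and total counts, without TMM factors. In controls GAPDH stood at 3501 ± 52.7 TPM (mean ± SD, n = 4), TPI1 at 1332 ± 20.4 and ENO1 at 583 ± 5.87, followed by PGAM1 (346 ± 6.62), PKM (302 ± 6.30), LDHA (273 ± 5.45) and PGK1 (206 ± 5.22). The same 7 genes held ranks 1 to 7 in the inhibitor group. ENO2 (135 ± 4.62 TPM) and GPI (135 ± 2.69 TPM) came next and were closer to each other than the spread between controls, as were PFKM (111 ± 4.29) and PFKL (108 ± 3.89). Among hypoxia genes BNIP3L (70.7 ± 6.94 TPM), HIF1A (63.0 ± 4.62) and EGLN1 (52.1 ± 3.51) led in controls, and EPAS1 was low at 1.53 ± 0.468 TPM. With the length of the longest coding transcript instead, GAPDH, TPI1 and ENO1 remained the top 3, while GPI (220.0 TPM) and PFKL (219 TPM) came above PGK1 (154 TPM), and VEGFA (48.9 TPM) came above EGLN1 (43.0 TPM).

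**Figure D2:**
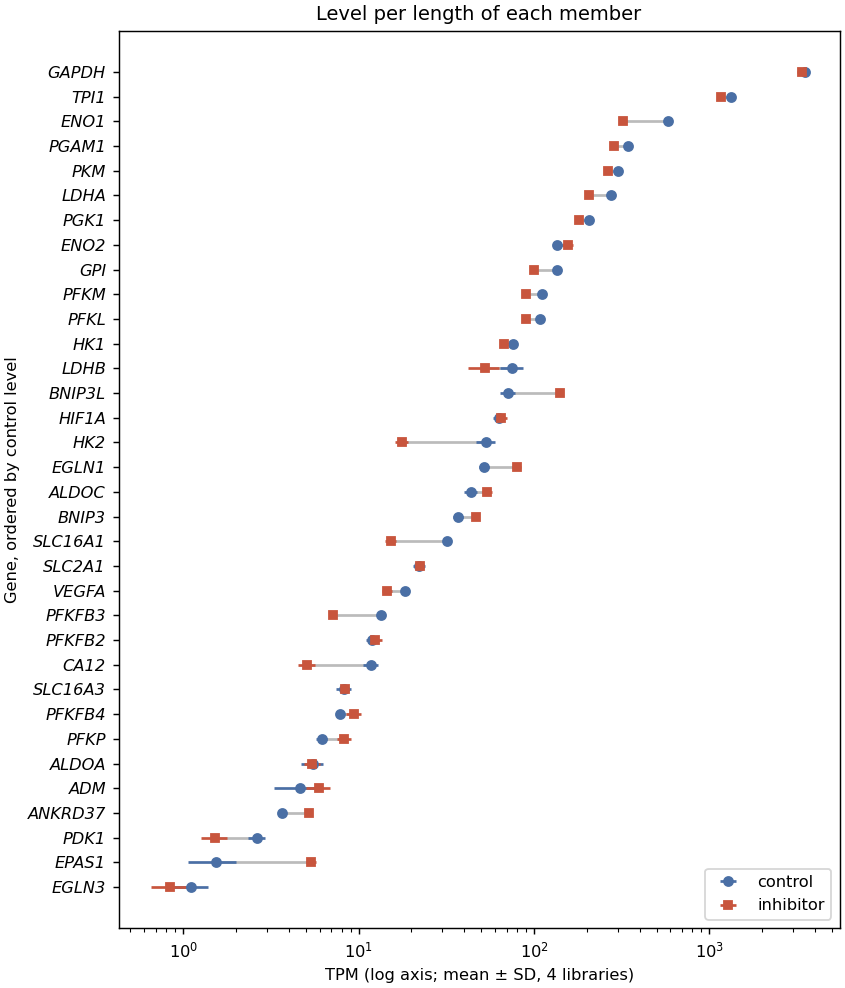
Level per length of 34 genes as TPM on a log axis (mean ± SD of 4 libraries), controls as blue circles and inhibitor libraries as red squares, ordered by the control level. GAPDH and TPI1 stay at the top in both groups. The widest gaps between the symbols belong to HK2, SLC16A1, CA12 and EPAS1.

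At the entry of glucose the transporter gene did not pass the test while both hexokinase genes fell. SLC2A1, which encodes the glucose transporter GLUT1, was at 44.2 to 50.8 CPM in controls and 42.0 to 47.6 CPM in inhibitor libraries (−0.11 ± 0.07, adjusted p = 0.177), so the groups overlapped. HK2 (ENSG00000159399; chromosome 2, 74834127 to 74893359, plus strand, hg38) encodes the inducible hexokinase that binds mitochondria and is raised in many tumours. Its TMM-scaled level was 113, 115, 96.0 and 92.3 CPM in controls 1 to 4 and 33.9, 28.4, 33.2 and 30.4 CPM in inhibitor libraries 1 to 4. Every inhibitor library was thus far below every control, and controls 1 and 2 lay above controls 3 and 4. The fall was 3.31-fold (−1.73 ± 0.08, adjusted p = 3.92e-15). HK1, the widely expressed hexokinase, went from 169, 180.3, 175 and 169.7 CPM in controls to 145, 139, 134 and 144 CPM, again without overlap but by much less (−0.30 ± 0.06, adjusted p = 4.74e-05). GPI, which turns glucose 6-phosphate into fructose 6-phosphate, fell from 476 ± 11.7 to 324 ± 16.9 CPM (mean ± SD, −0.55 ± 0.05).

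Phosphofructokinase carries out the committed step, and its subunit genes did not move alike. PFKL, the liver-type subunit (−0.40 ± 0.06), and PFKM, the muscle-type subunit (−0.44 ± 0.05), both fell without overlap, from 318 to 241 CPM and from 266 to 197 CPM. Exons of PFKM overlap SENP1 on the opposite strand, and the labels do not state the strand setting of the counting. PFKP, the platelet-type subunit, was 15.1, 14.7, 15.7 and 17.9 CPM in controls and 17.8, 21.31, 18.6 and 19.8 CPM with the inhibitor. Control 4 lay just above the lowest inhibitor library, and the rise was small (0.29 ± 0.09, adjusted p = 0.01). It no longer passed against controls 3 and 4 alone (adjusted p = 0.144). PFKFB enzymes make and break fructose 2,6-bisphosphate, the strongest allosteric activator of phosphofructokinase. PFKFB3, the isoform with the highest kinase activity, was 26.5, 28.0, 27.1 and 27.2 CPM in controls and 14.4, 12.3, 12.8 and 13.2 CPM in inhibitor libraries. The groups were well apart and the fall was 2.07-fold (−1.05 ± 0.09, adjusted p = 1.43e-10). PFKFB2 (−0.08 ± 0.08) and PFKFB4 (0.13 ± 0.10) did not pass, and their libraries overlapped. PFKFB4 passed as higher with total counts (0.23) and with GC correction (0.22), and PFKFB2 as lower with GC correction (−0.16).

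Through the triose steps the falls were modest. TPI1, triosephosphate isomerase (−0.33 ± 0.06), PGK1, phosphoglycerate kinase (−0.32 ± 0.06), and PGAM1, phosphoglycerate mutase (−0.41 ± 0.06), each fell without overlap. GAPDH, the dehydrogenase often used as a reference transcript, was 2685, 2725, 2811 and 2885 CPM in controls and 2738, 2294, 2232 and 2543 CPM with the inhibitor. Inhibitor library 1 lay within the control range and the other 3 below it. The fall of GAPDH was the smallest among the called members (−0.18 ± 0.06, adjusted p = 0.016). It did not pass with total counts (adjusted p = 0.195), with GC correction (0.387), with upper-quartile scaling (0.05005), without control 4 (0.0523), without inhibitor 2 (0.0604), without inhibitor 3 (0.0508) or against controls 1 and 2 alone (0.148). Annotated pseudogenes of GAPDH, 65 identifiers, held at most 0.482% of the gene's and pseudogenes' joint counts.

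The aldolase step could not be described well from these counts. ALDOA had only 6.93 ± 1.03 CPM in controls, although aldolase A is the main isoenzyme of most dividing cells. Its exons share 42.8% of their length with ENSG00000285043, a gene on the same strand that reads through ALDOA, and the labels do not state how reads in shared exons were treated. ALDOA did not pass the test (−0.13 ± 0.14, adjusted p = 0.427). With the counts of ENSG00000285043 added, an alternative chosen after seeing the data, the level was 14.0 ± 1.84 CPM in controls and 10.6 ± 0.774 CPM with the inhibitor, and the libraries still overlapped. ALDOC, the brain-type aldolase, was at 34.1 to 42.6 CPM in controls and 37.4 to 47.7 CPM with the inhibitor and did not pass (0.18 ± 0.08, adjusted p = 0.0611). It passed as higher under 6 other settings, including total counts (0.29) and GC correction (0.27).

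The enolase genes went apart. ENO1 (ENSG00000074800; chromosome 1, 8861000 to 8879190, minus strand) encodes the ubiquitous alpha-enolase and was 975, 996, 1026 and 1028 CPM in controls. In inhibitor libraries it was 559.6, 484, 474 and 519.6 CPM. Neither group came near the other, and the fall was 1.98-fold (−0.98 ± 0.06, adjusted p = 2.96e-13). ENO2, the neuron-type gamma-enolase used as a neuroendocrine marker, was 190.3, 191, 197 and 185 CPM in controls and 190.4, 215, 197 and 202 CPM with the inhibitor. Its groups overlapped and it did not pass (0.08 ± 0.06, adjusted p = 0.24), although it passed as higher with total counts (0.18) and GC correction (0.15). PKM, which encodes both pyruvate kinase M1 and M2, fell from 857 ± 30.8 to 681 ± 29.5 CPM (−0.33 ± 0.05). Gene counts do not separate its M1 and M2 transcripts.

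At the end of the pathway, both lactate dehydrogenase genes, PDK1 and 1 of the 2 lactate transporter genes fell. LDHA, the lactate dehydrogenase subunit that favours pyruvate reduction, was 543, 543, 534 and 559.9 CPM in controls and 411, 349, 348 and 383 CPM in inhibitor libraries, without overlap (−0.55 ± 0.06, adjusted p = 1.43e-08). LDHB, the subunit that favours lactate oxidation, varied more, with 59.9, 69.0, 83.6 and 85.0 CPM in controls and 43.4, 38.9, 46.4 and 62.2 CPM with the inhibitor. Inhibitor library 4 lay above control 1, and controls 3 and 4 lay above controls 1 and 2. LDHB fell 1.57-fold (−0.65 ± 0.16, adjusted p = 0.00571), and the log2 change was −0.45 against controls 1 and 2 alone and −0.83 against controls 3 and 4. Of its exon length 33.4% is shared with ENSG00000285854 on the same strand, which averaged 0.039 CPM on total counts. The labels do not state how reads in shared exons were treated, and this also limits LDHA/LDHB comparisons. PDK1, the kinase that switches off pyruvate dehydrogenase, was 13.3, 11.3, 12.1 and 14.9 CPM in controls and 6.97, 5.12, 7.50 and 7.61 CPM with the inhibitor (−0.95 ± 0.13, adjusted p = 1.30e-06). It was low but without overlap.

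The lactate transporter genes differed. SLC16A1 (ENSG00000155380; chromosome 1, 112911847 to 112957593, minus strand) encodes the monocarboxylate transporter MCT1 and was 67.2, 66.3, 67.0 and 66.0 CPM in controls, with the smallest SD relative to the mean among the 34 tested members. In inhibitor libraries it was 32.2, 26.5, 29.6 and 28.8 CPM. The fall was 2.28-fold (−1.19 ± 0.07, adjusted p = 4.10e-13). SLC16A3, which encodes the hypoxia-inducible exporter MCT4, was 22.9, 23.6, 29.0 and 25.4 CPM in controls and 22.4, 24.4, 22.1 and 24.5 CPM with the inhibitor. It did not pass (−0.11 ± 0.09, adjusted p = 0.289), and part of its exons overlap the more abundant CSNK1D on the opposite strand.

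**Figure D3:**
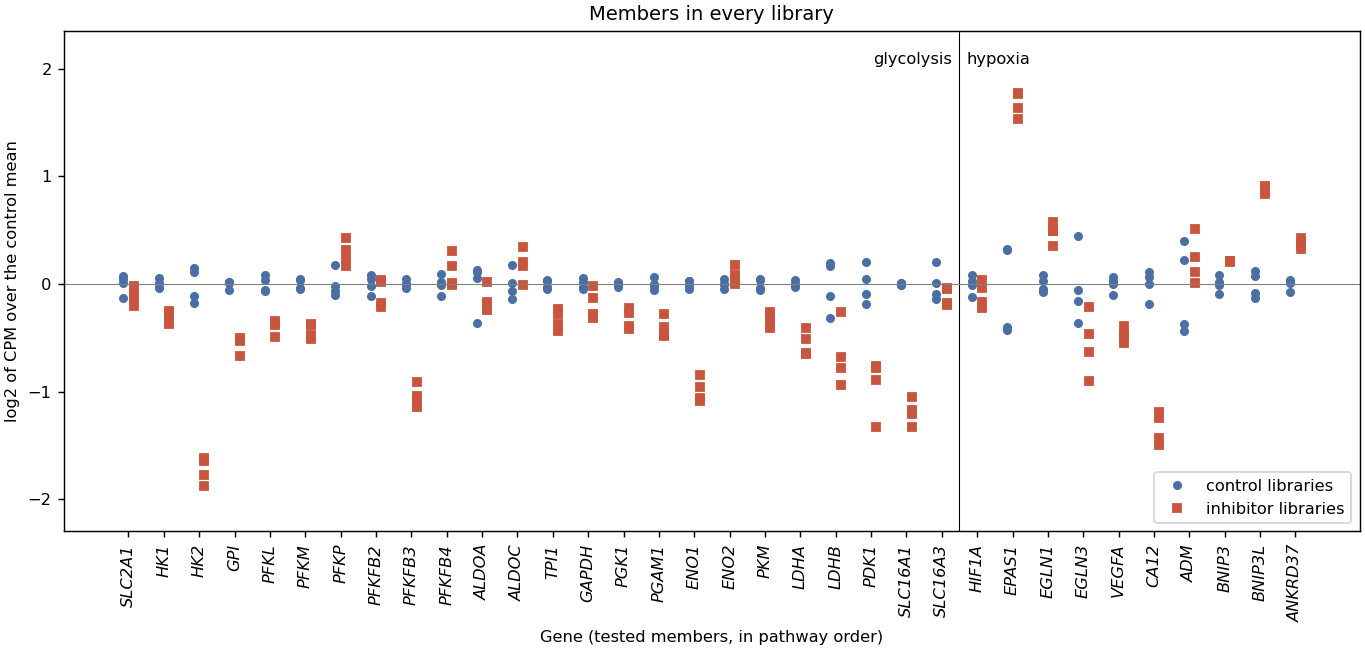
Each tested gene in each library as log2 of its TMM-scaled CPM over the mean of the 4 controls (vertical axis), with controls as blue circles and inhibitor libraries as red squares, glycolysis genes left and hypoxia genes right of the line. All 4 red squares lie below all blue circles for HK2, PFKFB3, ENO1, SLC16A1 and CA12. For ENO2, SLC2A1, SLC16A3 and HIF1A the symbols overlap.

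Isoenzymes of a step, and other related genes such as transporters, HIF factors and mitophagy receptors, were compared within each library, where library scaling cancels. Of 16 log2 count ratios computed, 14 had at least 10 counts for both genes in every library. In 10 of these 14 the 4 inhibitor libraries lay beyond all 4 controls. The 10 include HIF1A/EPAS1, BNIP3/BNIP3L and SLC16A1/SLC16A3, which do not compare isoenzymes. Groups did not overlap for 51.0% of single genes, but that is not a like measure. No such share was computed for ratios of other genes, and some of the ratios share a gene. Each of the 10 had a two-sided exact permutation p of 0.0286, the smallest that 4 against 4 libraries allow, or 0.0416 after Benjamini-Hochberg adjustment over the 16 ratios.

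The hexokinase ratio HK1/HK2 was 0.58, 0.65, 0.86 and 0.88 on the log2 scale in controls and 2.10, 2.30, 2.01 and 2.24 with the inhibitor. This is a shift of 1.42 toward HK1, whose share of the summed hexokinase TPM went from 59.0% ± 2.53 to 79.4% ± 1.48 (SD, n = 4). ENO1/ENO2 went from 2.36, 2.38, 2.38 and 2.48 to 1.56, 1.17, 1.27 and 1.36, a shift of −1.06. The ENO1 share of enolase TPM accordingly went from 81.2% ± 0.555 to 67.4% ± 2.48, or from 89.3% ± 0.347 to 80.0% ± 1.80 with coding transcript lengths. SLC16A1/SLC16A3 shifted by −1.08, and the SLC16A3 share of the summed TPM of these 2 transporters rose from 20.6% ± 1.73 to 35.5% ± 2.91.

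Among the regulators of phosphofructokinase, PFKFB2/PFKFB3 shifted by 0.96 and PFKFB4/PFKFB3 by 1.17, both away from PFKFB3. The PFKFB3 share of the 3 isoforms' TPM went from 40.5% ± 0.839 to 24.7% ± 0.978. PFKL/PFKP (−0.69) and PFKM/PFKP (−0.72) shifted toward PFKP, yet PFKP made up only 4.40% ± 0.379 of phosphofructokinase TPM with the inhibitor. PFKL/PFKM, the ratio of the 2 abundant subunits, overlapped between groups (difference 0.04, exact permutation p = 0.4). LDHA/LDHB also overlapped (difference 0.10, exact permutation p = 0.686), with 3.18, 2.98, 2.67 and 2.72 in controls and 3.24, 3.17, 2.91 and 2.62 in inhibitor libraries. The remaining ratios that overlapped were PFKFB2/PFKFB4 (−0.20) and ALDOA/ALDOC (−0.32).

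**Figure D4:**
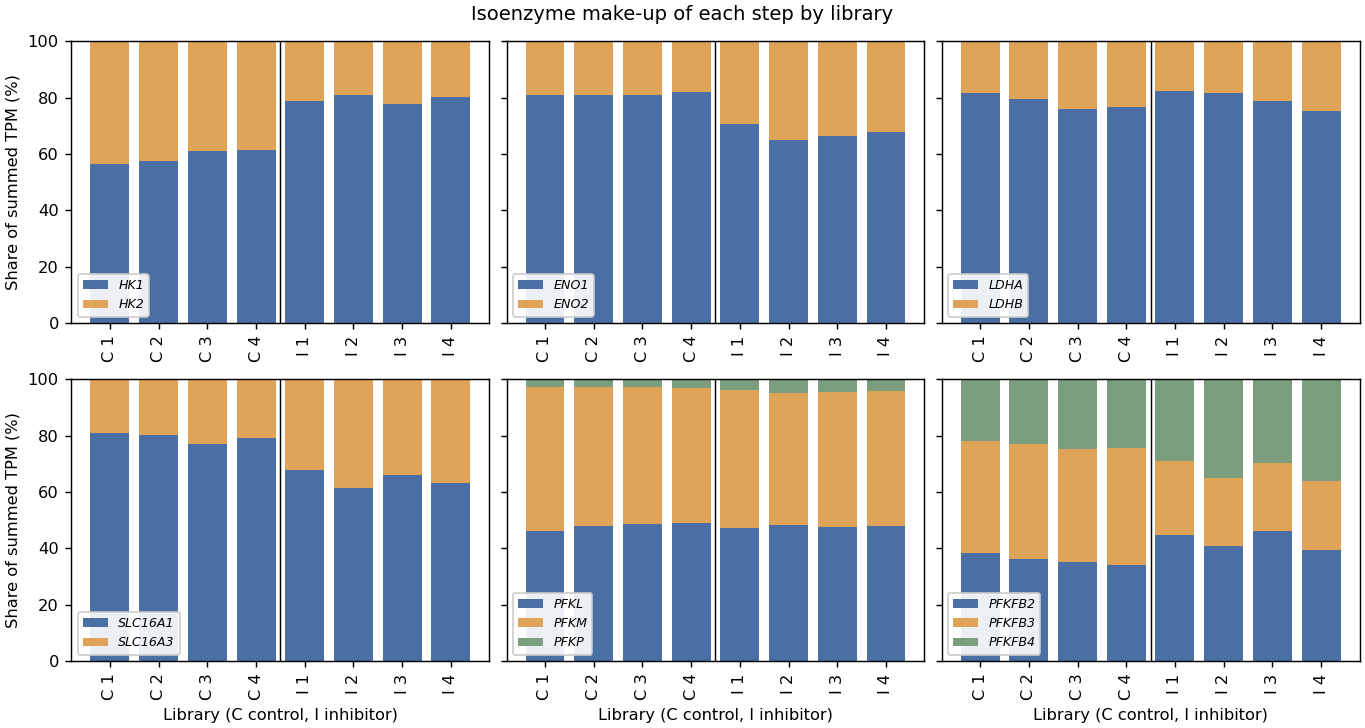
Share of each isoenzyme gene in the summed TPM of its step (vertical axis, percent) in each of 4 control (C) and 4 inhibitor (I) libraries. HK2, ENO1, SLC16A1 and PFKFB3 take smaller shares in every inhibitor library than in any control. The LDHA and LDHB shares overlap between the groups.

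On the oxygen-sensing side, the 2 alpha subunit genes behaved differently. HIF1A, whose product is controlled mainly by protein stability, was 114, 107, 109.6 and 98.8 CPM in controls and 109.8, 91.6, 104 and 95.5 CPM with the inhibitor. The groups overlapped and it did not pass (−0.10 ± 0.07, adjusted p = 0.212), but its value depended on processing, with 0.0064 under total counts, −0.26 under GC correction (adjusted p = 6.84e-05) and −0.16 without inhibitor library 1 (adjusted p = 0.0393). EPAS1 (ENSG00000116016; chromosome 2, 46293667 to 46386697, plus strand) encodes HIF-2 alpha and was 4.62, 4.59, 2.79 and 2.73 CPM in controls, from 34 to 59 counts per library. With the inhibitor it was 12.5, 12.6, 10.6 and 11.5 CPM. Controls 1 and 2 were above controls 3 and 4, and every inhibitor library was above all of them. EPAS1 rose 3.21-fold (1.68 ± 0.16, adjusted p = 1.39e-09), by 1.35 against controls 1 and 2 alone and by 2.10 against controls 3 and 4. Even so, HIF1A still made up 92.3% ± 0.885 of their summed TPM, after 97.6% ± 0.599 in controls, and HIF1A/EPAS1 shifted by −1.81.

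The hydroxylase gene EGLN1, the main oxygen sensor of the HIF pathway and itself a HIF target, was 98.4, 94.7, 89.5 and 88.3 CPM in controls and 138, 118, 131 and 131 CPM with the inhibitor. All 4 inhibitor libraries lay above the controls (0.48 ± 0.06, adjusted p = 4.24e-07). Of the EGLN1 exon length 55.8% is shared with ENSG00000287856 on the same strand, for which the count files give no level. The labels do not state how reads in shared exons were treated, which also limits comparisons of EGLN1 with EGLN3. EGLN3, a strongly hypoxia-inducible relative, was at only 2.11 to 3.69 CPM in controls and 1.45 to 2.34 CPM with the inhibitor and did not pass (−0.50 ± 0.23, adjusted p = 0.0618). It passed as lower without control 4 (adjusted p = 0.0347) or without inhibitor 2 (0.0303). EGLN1/EGLN3 shifted by 0.997. The annotated pseudogene of EGLN3 held 3.45% to 32.4% of the joint counts, with a mean of 6.24% in controls and 18.7% with the inhibitor, and its part in the ratio was not tested.

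Hypoxia target genes split. VEGFA, the angiogenic growth factor gene, was 89.8, 87.8, 91.9 and 82.2 CPM in controls and 60.0, 67.1, 62.8 and 63.2 CPM with the inhibitor, a fall without overlap (−0.47 ± 0.06, adjusted p = 6.04e-07). CA12 (ENSG00000074410; chromosome 15, 63321378 to 63381846, minus strand), which encodes a membrane carbonic anhydrase that helps to control pH, was 29.2, 27.1, 28.3 and 23.8 CPM in controls and 11.9, 9.57, 11.4 and 10.03 CPM with the inhibitor. That fall was 2.54-fold (−1.35 ± 0.10, adjusted p = 1.55e-11). CA9, the carbonic anhydrase gene most used as a marker of hypoxic tumour cells, was at the limit of detection in both groups.

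The mitophagy receptor genes went up. BNIP3L was 102, 106, 88.8 and 91.6 CPM in controls and 183, 176, 173 and 175 CPM with the inhibitor, a 1.82-fold rise (0.87 ± 0.06, adjusted p = 1.08e-11). Of its exon length 7.95% overlaps PNMA2 on the opposite strand, which averaged 14.9 CPM. BNIP3 was 52.5, 50.1, 46.6 and 49.2 CPM in controls and 57.7, 57.4, 57.0 and 57.5 CPM with the inhibitor. The inhibitor libraries were all above the controls, but the rise was small (0.21 ± 0.07, adjusted p = 0.00749) and did not pass against controls 1 and 2 alone (adjusted p = 0.146). Its 44 annotated pseudogenes held 9.66% to 13.5% of the joint counts, and the labels do not state how reads matching both were assigned. BNIP3/BNIP3L shifted by −0.66 toward BNIP3L.

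The 2 remaining targets were low. ADM, the gene of the vasodilator peptide adrenomedullin, did not pass (0.25 ± 0.19, adjusted p = 0.284), with overlapping libraries at 2.62 to 5.03 CPM. ANKRD37, a small ankyrin repeat gene induced by HIF, was 2.74, 2.77, 2.79 and 2.57 CPM in controls and 3.56, 3.42, 3.503 and 3.66 CPM with the inhibitor. Its libraries did not overlap, yet it missed the threshold (0.38 ± 0.17, adjusted p = 0.0666), and 40.3% of its exon length overlaps UFSP2 on the opposite strand. It passed as higher with upper-quartile scaling (0.41) and with total counts (0.48).

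HIF binds the core letters ACGTG or GCGTG, and MYC and related factors bind the E-box CACGTG, which contains ACGTG on both strands. The 250 bases before each RefSeq start site (GRCh38.p14) were searched on both strands. Of the 36 members, 31 had at least 1 such window, and 58 windows in all, since several genes have more than 1 start site. Either core stood in 34 of the 58 windows (58.6%) and in 43.1% of 34788 windows of all genes. ACGTG stood in 36.2% against 18.5%, GCGTG in 32.8% against 32.2% and CACGTG in 13.8% against 6.31%. Among members with a window, either core was found for 13 of 16 that fell, 4 of 4 that rose and 8 of 10 that did not pass. These counts are per gene over all its windows and cannot be set against the 43.1% of windows. A share per gene over all genes was not computed. Genes with more windows had more chances of a match, and a match is not a binding site.

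Windows of 4 members that fell and 2 that rose are shown, chosen because they hold the core letters and have almost no annotated exon in them. They are written 5′ to 3′ on the gene's strand, and capitals mark every ACGTG or GCGTG on either strand.
HK2 promoter, chr2:74834920-74835169, plus strand: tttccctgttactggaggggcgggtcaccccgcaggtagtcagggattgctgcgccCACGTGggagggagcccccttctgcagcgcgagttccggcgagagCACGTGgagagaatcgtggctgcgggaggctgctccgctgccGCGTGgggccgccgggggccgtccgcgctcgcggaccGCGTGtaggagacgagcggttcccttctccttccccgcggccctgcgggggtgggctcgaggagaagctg
LDHA promoter, chr11:18394313-18394562, plus strand: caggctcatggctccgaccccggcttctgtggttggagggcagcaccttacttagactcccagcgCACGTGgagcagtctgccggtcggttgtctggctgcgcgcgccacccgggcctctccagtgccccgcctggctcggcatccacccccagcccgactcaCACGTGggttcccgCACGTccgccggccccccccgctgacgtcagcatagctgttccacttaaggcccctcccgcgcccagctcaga
PGK1 promoter, chrX:78103998-78104247, plus strand: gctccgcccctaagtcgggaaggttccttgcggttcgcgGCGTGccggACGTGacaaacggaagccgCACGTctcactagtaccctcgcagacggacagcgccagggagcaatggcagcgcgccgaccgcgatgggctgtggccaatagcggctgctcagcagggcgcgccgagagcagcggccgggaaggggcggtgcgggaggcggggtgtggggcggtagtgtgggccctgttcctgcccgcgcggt
CA12 promoter, chr15:63381847-63382096, minus strand: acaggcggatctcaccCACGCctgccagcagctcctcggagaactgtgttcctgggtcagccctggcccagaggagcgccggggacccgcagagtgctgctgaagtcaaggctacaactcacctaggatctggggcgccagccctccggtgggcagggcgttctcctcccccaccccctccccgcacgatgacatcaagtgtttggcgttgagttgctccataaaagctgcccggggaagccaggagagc
EGLN1 promoter, chr1:231422288-231422537, minus strand: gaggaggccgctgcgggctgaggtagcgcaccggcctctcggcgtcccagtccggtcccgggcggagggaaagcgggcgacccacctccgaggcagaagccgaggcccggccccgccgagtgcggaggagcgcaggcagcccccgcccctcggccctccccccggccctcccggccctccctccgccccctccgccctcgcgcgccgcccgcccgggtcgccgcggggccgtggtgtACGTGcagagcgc
EPAS1 promoter, chr2:46297157-46297406, plus strand: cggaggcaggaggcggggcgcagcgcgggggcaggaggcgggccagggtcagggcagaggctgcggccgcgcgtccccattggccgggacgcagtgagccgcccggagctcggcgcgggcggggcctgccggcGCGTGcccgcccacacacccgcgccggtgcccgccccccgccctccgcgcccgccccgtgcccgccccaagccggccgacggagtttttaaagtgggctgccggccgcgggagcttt
The LDHA window held 5 matches of ACGTG, where each CACGTG counts on both strands, and 0 of GCGTG. The windows of HK2, PGK1 and EPAS1 lie inside the GENCODE gene. The HK2 window shown held 4 matches of ACGTG and 2 of GCGTG, and that of PGK1 held 2 and 1. A further HK2 window, not shown, ends just before the GENCODE gene start and held 2 of ACGTG and 1 of GCGTG. CA12, which fell, and EPAS1, which rose, each held 1 GCGTG, and EGLN1, which rose, held 1 ACGTG. Among windows not shown, that of BNIP3, which rose, held 2 matches of ACGTG and 4 of GCGTG. That of ALDOC, which did not pass, held 3 and 2.

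Other genes of the pathway were followed through 6 lists written from general knowledge. Across them 112 of 139 genes were tested, 40 rose, 33 fell and 39 did not pass, so 65.2% were called against the background of 58.0%. Of 17 tested further isoenzymes and sugar transporters, 8 fell and 3 rose (median −0.34). This median depended on single libraries: it was −0.20 without control 1, −0.15 without inhibitor 2 and −0.20 without inhibitor 4, −0.18 with GC correction and −0.14 against controls 3 and 4 alone. Without control 1, control 2 or inhibitor 3 the number that rose was 2. SLC2A10 (−1.06 ± 0.09) and the insulin-regulated glucose transporter gene SLC2A4 (−1.74 ± 0.17) fell, as did the muscle enolase gene ENO3 (−1.09 ± 0.12), part of whose exons overlap the far more abundant PFN1 on the opposite strand. BPGM, which makes 2,3-bisphosphoglycerate in a bypass of the PGK1 step, rose from 21.5 ± 1.39 to 43.8 ± 1.34 CPM (1.03 ± 0.08), and the inositol transporter gene SLC2A13 rose (0.96 ± 0.12). BSG, the chaperone of these lactate transporters (SLC16A1 and SLC16A3), did not pass (−0.09 ± 0.06).

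Genes that lead away from glycolysis were mixed. For gluconeogenesis and glycogen 61.9% of tested genes were called and for the pentose phosphate pathway 63.6%, against 58.0% of all tested genes. In the list of gluconeogenesis and glycogen 8 of 21 rose and 5 fell (median 0.06), or 5 and 5 against controls 1 and 2 alone. PCK2, the mitochondrial phosphoenolpyruvate carboxykinase gene (−0.74 ± 0.06), and the brain-type glycogen phosphorylase gene PYGB (−0.63 ± 0.07) fell, while the phosphorylase kinase subunit gene PHKB (0.39 ± 0.07) and PGM2 (0.37 ± 0.07) rose. Of 11 pentose phosphate genes 5 fell and 2 rose (median −0.11), with TALDO1, transaldolase (−0.57 ± 0.07), and RPIA, ribose-5-phosphate isomerase (−0.65 ± 0.08), among those that fell. The number that rose was 1 without control 3, control 4, inhibitor 1 or inhibitor 3.

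At pyruvate entry into mitochondria 5 of 13 fell and 4 rose, but with total counts 2 fell and 4 rose. With TMM scaling 69.2% of the 13 were called, against 58.0% of all tested genes. DLAT (−0.56 ± 0.07) and PDHA1 (−0.34 ± 0.06), subunits of pyruvate dehydrogenase, fell. PDK4, a pyruvate dehydrogenase kinase induced by fasting, rose from 49.8 ± 2.65 to 72.0 ± 6.72 CPM (0.53 ± 0.07), opposite to PDK1, and the phosphatase gene PDP1 rose too (0.55 ± 0.10). PDK2 (0.01 ± 0.09) and PDK3 (0.05 ± 0.15) did not pass.

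Of 18 HIF pathway regulators 8 rose, 1 fell and 9 did not pass (median 0.05), or 8 rose and 4 fell after GC correction or without inhibitor 1, and 8 and 3 with RLE (relative log expression) scaling. Against controls 1 and 2 alone 5 rose and 2 fell, and leaving out single other libraries gave 6 to 8 that rose and 1 to 2 that fell. With TMM scaling the share of the 18 that was called lay below the 58.0% of all tested genes. Of all tested genes 29.8% were higher and 28.3% lower. OS9 (0.68 ± 0.05), the asparagine hydroxylase gene HIF1AN (0.38 ± 0.06) and the HIF partner genes ARNT (0.34 ± 0.07) and ARNT2 (0.64 ± 0.11) rose. CITED2, which encodes an inhibitor of HIF that competes for p300, fell (−0.35 ± 0.05). VHL, which recognises hydroxylated HIF, rose slightly with overlapping libraries (0.20 ± 0.07, adjusted p = 0.0182).

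Of 34 other hypoxia-induced genes 15 rose, 9 fell and 10 did not pass (median 0.12). With total counts 20 rose and 7 fell. The collagen prolyl hydroxylase genes P4HA1 (0.69 ± 0.07) and P4HA2 (1.32 ± 0.13), the histone demethylase gene KDM3A (0.69 ± 0.07) and CCNG2 (1.17 ± 0.07) rose. The adenylate kinase gene AK4 (−1.21 ± 0.07), the lipid droplet gene HILPDA (−1.01 ± 0.08), the MTORC1 inhibitor gene DDIT4 (−1.11 ± 0.11) and TMEM45A (−2.72 ± 0.18) fell. Of these 34 genes 70.6% were called, against 58.0% of all tested genes (29.8% higher and 28.3% lower). Both directions thus occurred among genes that hypoxia is known to raise, as among the members and among all tested genes. Over all settings run, the medians spanned 0.03 to 0.16 for gluconeogenesis and glycogen, −0.15 to −0.004 for the pentose phosphate genes, −0.09 to 0.12 for pyruvate entry, −0.05 to 0.16 for HIF regulators and 0.08 to 0.22 for the other hypoxia-induced genes.

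**Figure D5:**
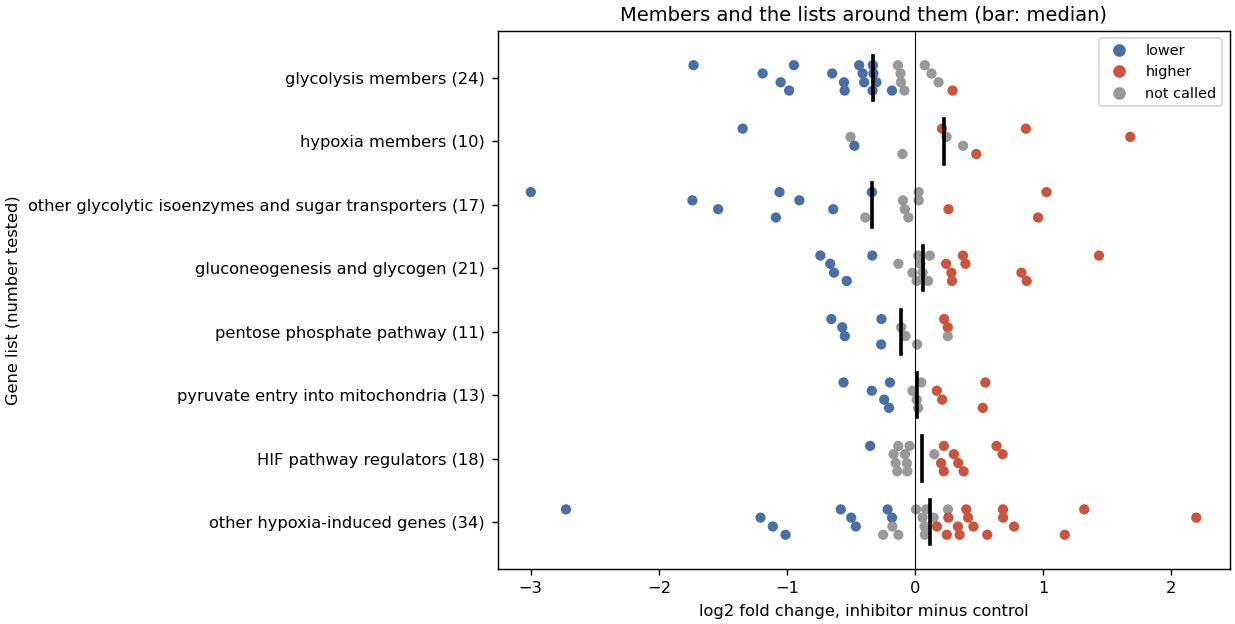
Log2 fold change (horizontal axis, inhibitor minus control) of each tested gene in the 2 arms of the members and in the 6 lists around them, with the number tested in brackets, black bars at the medians and colours for genes called lower (blue), higher (red) or not called (grey). The medians of the glycolysis members (−0.33) and of the further isoenzymes and sugar transporters (−0.34) lie left of 0, the latter at −0.15 without inhibitor library 2, while the former stayed between −0.38 and −0.23 in all settings run. Those of the hypoxia members (0.23, between 0.15 and 0.33 in all settings run) and other hypoxia-induced genes (0.12) lie right of 0.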

How the data were processed

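RNA of 22Rv1 cells was measured in 4 control and 4 inhibitor-treated libraries. Each deposited file gives whole-number counts for Ensembl genes. Per the submitters' processing notes, the authors aligned to hg38 and ran featureCounts, and DESeq2 is named as well. Aligner, annotation, strand setting and versions are not stated there.

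The test was that of edgeR 4.0.16 under R 4.3.3 (filterByExpr on the group, TMM factors, robust quasi-likelihood fit on the group alone, Benjamini-Hochberg over 16452 genes). CPM are on the TMM scale, except sums of markers, which use total counts. SE is the change divided by the square root of F. Ratios of isoenzymes and of other related genes added 0.5 to each count. Symbols and exon lengths came from GENCODE 44 on hg38, which names 58207 of 58735 identifiers, and promoters from RefSeq. Every pair of libraries differed by more than sampling noise (chi-square per degree of freedom of at least 1.71).

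The edgeR procedure was run on simulated counts in which only a small part of the genes was changed. That run does not bear on the dependence on scaling seen here, where most genes were called. The members, lists, ratios and alternatives were chosen with earlier results of these data known. Genes named outside the members were taken from the lists, at most 4 called genes each way by smallest p (not all are named), and BSG, PDK2, PDK3 and VHL were added after their values were seen. Some genes of the lists are not reported here by name. Alternatives were other scalings, filters and tests (DESeq2 1.42.0, limma-voom 3.58.1), a replicate block, left-out libraries, a stricter threshold, GC offsets and thinning.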

Additional observations from a re-analysis of the deposited data

Results flagged for a closer look

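GPI in inhibitor library 3 stood apart from the rest of its group. Its level there was 298.7 CPM on the TMM scale, while the other 3 inhibitor libraries lay between 329.8 and 335.2 CPM. The gap to the nearest library, divided by the range of the group, was 0.851. All 4 values were below the lowest control, and without that library the log2 change was −0.53, against −0.55 with it. Of 68 groups of 4 libraries examined for the tested members this was the only one to stand apart by this measure, which chance alone gives for about 1 in 20 groups.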

How the results depend on the processing

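Members counted as higher numbered 5, but 9 with total-count scaling, 8 with GC offsets and 7 with upper-quartile scaling. With libraries thinned to the lowest total they numbered 6, and against controls 3 and 4 alone 4. Members counted as lower numbered 17 to 19 under every scaling, filter, test and left-out library run. Leaving out each library in turn gave 5 to 6 members higher and 17 to 19 lower. Of the single members' changes under all alternatives, 717 kept their direction and side of the threshold, 18 newly passed, 11 no longer passed and 3 changed sign. Those 3 were PFKFB2 with total counts (0.023), HIF1A with total counts (0.0064) and SLC16A3 with GC offsets (0.074), and none of the 3 passed in the fit as reported. The cause was not tested. No pairing of libraries by replicate number was seen. Correlations of the deviations of same-numbered libraries were 0.13, −0.09, −0.05 and 0.08, and the same-numbered library was the best match for number 1 only. No reference spread was computed for these correlations, so a weak pairing could be missed. With a replicate block, members split into 5 higher and 18 lower and all genes into 4912 higher and 4684 lower, against 4897 and 4652 without it. Depth limits SLC2A3 and CA9 and, with 21 to 34 counts in their lowest libraries, EGLN3, ADM, ANKRD37 and EPAS1.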
